A study of Homo sapiens with 6 samples.

Results

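The genes described here are 55 components and regulators of pre-mRNA splicing: 12 SR proteins, 13 hnRNPs, 8 tissue-regulated splicing factors, 9 proteins of 3′ splice site recognition and the U2 snRNP, 4 proteins of the U1 snRNP and the Sm ring, 5 proteins of the U5 snRNP, the tri-snRNP and the Prp19 complex (NTC), and 4 SR protein kinases. They were chosen by symbol from a list of splicing factors, a machinery that ZNF207 is known to contact in interphase cells. The choice did not use their values, but earlier results of these data were known when it was made. All 55 were found, 1 row each, among 60569 gene names. RNA was sequenced in MDA-MB-453, a long-established line of human breast carcinoma cells, in 2 groups of 3 biological replicates: cells transfected with a construct that overexpresses ZNF207, and cells transfected with a control vector. Both groups were therefore transfected, and they differ in the insert. The labels and the series description do not state the promoter of the construct, the time after transfection or the share of cells that took it up.

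Splicing removes introns in steps. The U1 snRNP binds the 5′ splice site, SF1 and the U2AF proteins mark the branch point and the 3′ splice site, the U2 snRNP replaces SF1, and the tri-snRNP with U5 then builds the catalytic centre with the help of the Prp19 complex. SR proteins mostly favour the use of exons to which they bind, many hnRNPs oppose it, and the kinases of the CLK and SRPK families phosphorylate the SR proteins. ZNF207 (BuGZ) carries zinc fingers and is known for loading the checkpoint protein BUB3 on kinetochores in mitosis. In interphase ZNF207 and BUB3 have been found with splicing factors.

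SR protein genes are known to limit their own expression through exons that carry an early stop codon. Inclusion of such an exon sends the transcript to nonsense-mediated decay (NMD). In GENCODE v29, 12 of 12 SR genes listed at least 1 transcript annotated as NMD, against 44.4% of the 11436 tested protein-coding genes. Over all 55 genes it was 40, or 72.7%, and 44 listed a retained-intron transcript (80.0%, against 59.1% of tested protein-coding genes). These are counts of annotation, which follow how closely a gene has been studied. In 5 of the 12 SR genes an internal exon of an NMD transcript overlapped no exon of a coding transcript and held the end of the reading frame. One such exon is printed for 4 of these genes, from its first base to the stop codon in capitals, because the gene-level values add transcripts with and without it and cannot part them. The sequences are from GENCODE v29 on GRCh38, 5′ to 3′ on the gene's strand.
SRSF3 (chr6:36599821-36599854, plus strand, in an exon of 456 bases): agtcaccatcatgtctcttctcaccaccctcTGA
SRSF4 (chr1:29160018-29160058, minus strand, in an exon of 195 bases): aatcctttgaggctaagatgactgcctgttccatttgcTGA
SRSF7 (chr2:38749319-38749346, minus strand, in an exon of 449 bases): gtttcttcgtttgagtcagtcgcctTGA
SRSF9 (chr12:120464812-120464822, minus strand, in an exon of 90 bases): aaaactatTAG

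Values are FPKM, mapped fragments scaled by transcript length and by library total, as the authors deposited them. Read depth is not known from such values. Between 13061 and 13231 genes reached an FPKM of 1 in a library. ZNF207 stood at 885, 786 and 750 FPKM in the overexpression libraries, against 69.2, 67.0 and 63.7 FPKM in the controls, and BUB3 at 112, 110 and 102 FPKM in overexpression libraries, against 107, 103 and 110 FPKM in controls. All 8 luminal markers examined (FOXA1, GATA3, SPDEF, XBP1, ERBB2, KRT8, KRT18, KRT19) were at 1 FPKM or more in every library. They summed to 6910 to 6960 FPKM in overexpression libraries and 7200 to 7550 FPKM in controls. KRT8, KRT18 and KRT19 carried most of these sums and had lower means in overexpression libraries, as did GATA3. FOXA1, SPDEF, XBP1 and ERBB2 had higher means there (152, 189, 627 and 68.8 FPKM, against 139, 169, 581 and 66.0 FPKM in controls). Of 10 markers of leukocytes, endothelium, stroma and basal epithelium, 7 were below 1 FPKM in every library, COL1A1 and ACTA2 were above it in every library, PTPRC, CD3E and PECAM1 were at or near 0, and the 10 summed to 26.8 to 31.7 FPKM in overexpression libraries and 30.0 to 31.1 FPKM in controls. Mitochondrially encoded genes took 5.71% to 6.64% of FPKM in overexpression libraries and 4.36% to 5.42% in controls, and the part of these shifts in the results was not tested. In bulk RNA a lower value can mean fewer cells with the transcript or less of it per cell.

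None of the 55 splicing genes passed the test between overexpression and control libraries (limma, adjusted p under 0.05 over 13185 tested genes), where 28 of all tested genes, 0.212%, did. At an unadjusted p under 0.05 there were 2 lower members, SRSF7 and SNRPB, and 0 higher ones, or 3.64% of the 55. Over all tested genes 7.03% were lower and 5.08% higher at that p. Complete separation of the 3 overexpression from the 3 control libraries was seen for 2 lower members, SRSF7 and HNRNPA1, and 2 higher members, ESRP2 and SNRNP200, together 7.27% of the 55. Among all tested genes the groups did not overlap for 10.4% in the lower and 7.61% in the higher direction. Both shares of the members lay below those of the whole table. Separation depended on the scaling of the libraries. Scaled to their total without mitochondrially encoded genes and ZNF207, 1700 of all tested genes were separated higher and 884 lower. As deposited these were 1004 and 1365. The separated members under that scaling are not given here.

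The estimates were small and their intervals narrow. On the log2(FPKM + 1) scale the changes of the 55 genes ran from -0.22 to 0.10, and 48 were smaller than 0.1 in size. Their median size was 0.0559, against 0.0878 over all tested genes and 0.0733 over the 7841 tested genes that averaged at least 10 FPKM, of which 14.0% had an unadjusted p under 0.05. The 95% intervals reached 0.10 to 0.31 to either side of the estimate (median 0.13). For 41 of the 55 the whole interval lay within 0.25 of no change, and for all 55 within 0.5. Their median estimate was -0.02 (all tested genes -0.01). Estimates below 0 were found for 38 genes and above 0 for 17, against 6911 and 6274 of all 13185 tested genes. The split of the 55 depended on the scaling. With libraries scaled to their total without mitochondrially encoded genes and ZNF207, 25 were below and 30 above 0. There the members' median was 0.02 and that of all tested genes 0.03.

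**Figure D1:**
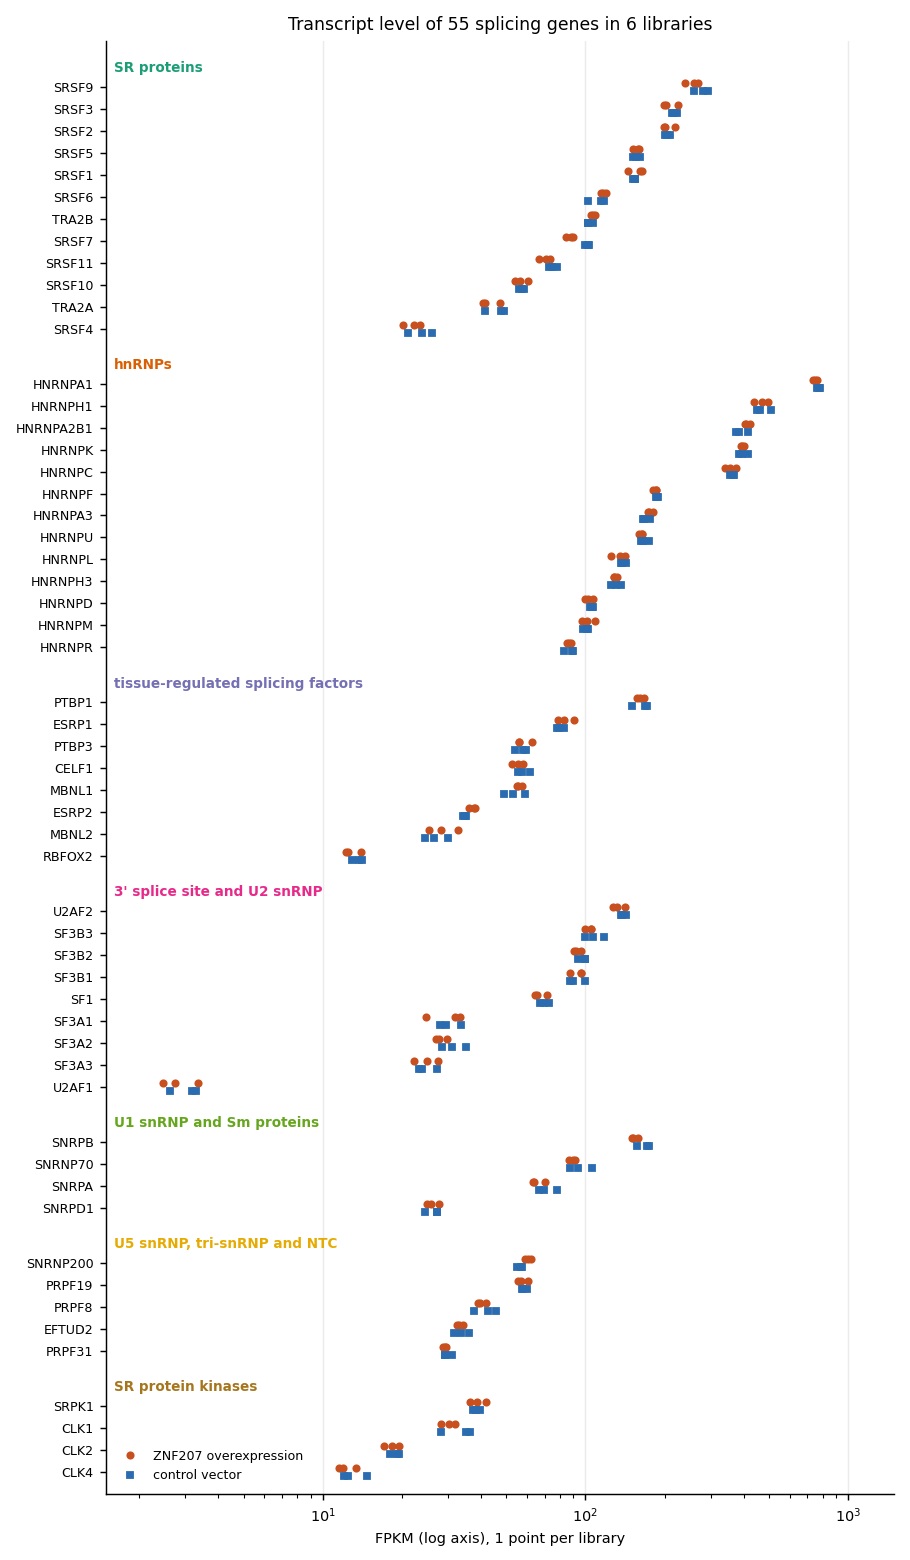
FPKM of the 55 splicing genes on a log axis, 1 point per library, with 3 ZNF207 overexpression libraries (circles) above 3 control libraries (squares) for each gene, ordered by level within a class. HNRNPA1 is highest with a mean of 760 FPKM and U2AF1 lowest with 2.94 FPKM, and the 2 sets of points lie close together for nearly every gene.

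Most of these genes were abundant. The mean over 6 libraries was at 10 FPKM or more for 54 of the 55 and at 100 FPKM or more for 23, with a median of 86.9 FPKM, against 14.3 FPKM over all tested genes. FPKM is scaled by transcript length, so levels can be set beside each other between genes. Together the 55 took 1.08% to 1.13% of all FPKM in overexpression libraries and 1.10% to 1.15% in controls. The 13 hnRNPs made up more than the other classes together, with sums of 3470, 3500 and 3400 FPKM in overexpression libraries and 3590, 3420 and 3450 FPKM in controls.

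**Figure D2:**
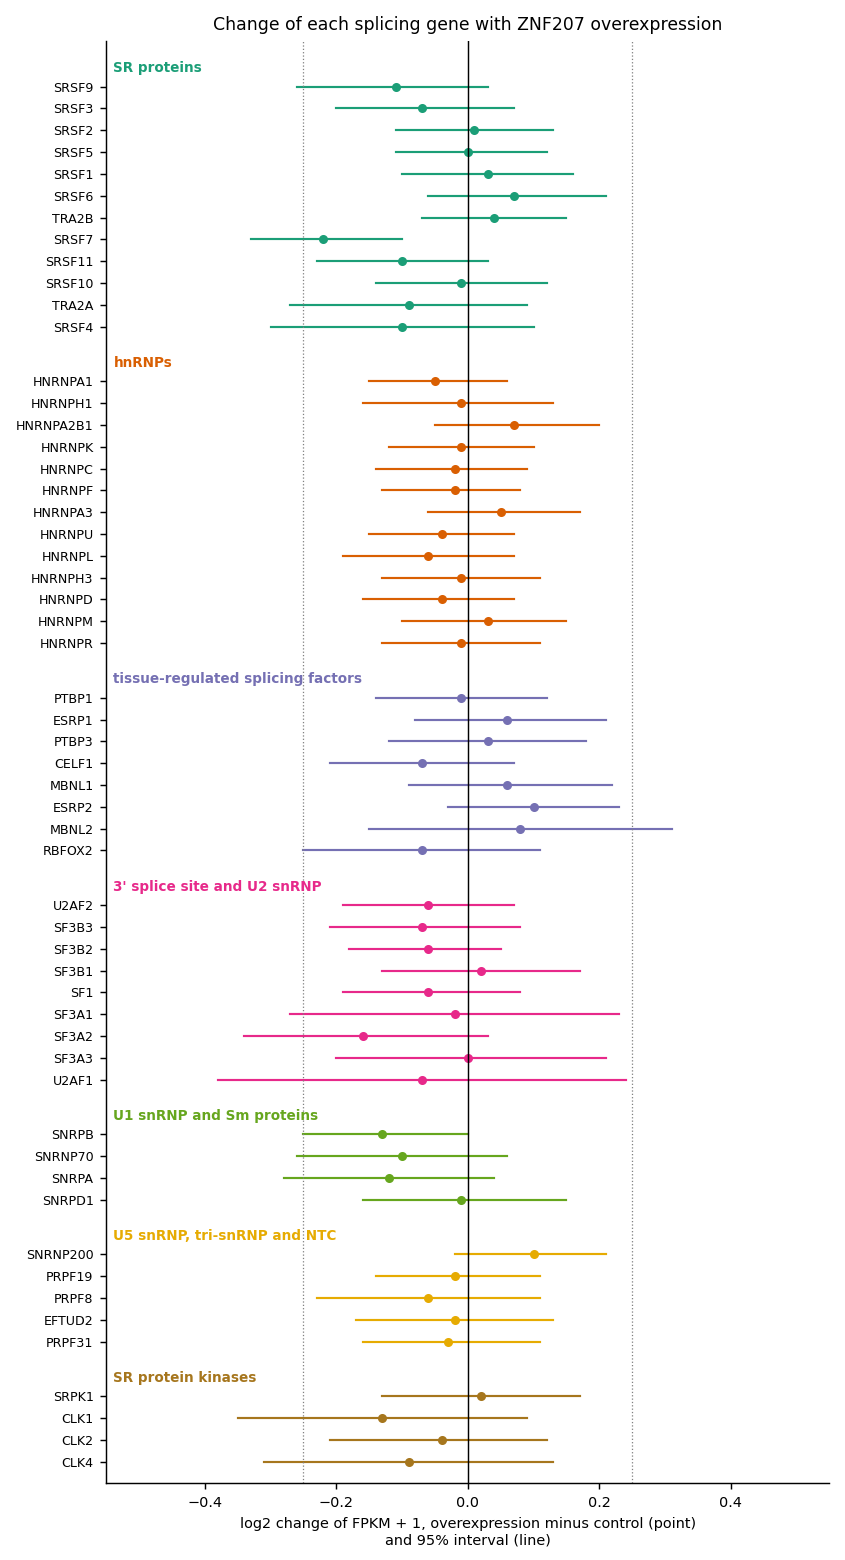
Log2 change of FPKM + 1 for each of the 55 genes, overexpression minus control (point), with its 95% interval from limma (line), coloured by class. Dotted lines mark changes of 0.25 to either side. Only the intervals of SRSF7 and SNRPB leave out 0, and the point of SRSF7 (-0.22) lies farthest from it.

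Among the SR proteins, SRSF7 had the lowest estimate. SRSF7 binds exonic RNA through an RNA recognition motif and a zinc knuckle and also acts in mRNA export and in the choice of polyadenylation sites. Its gene (ENSG00000115875, chromosome 2, 38743599 to 38751494, minus strand, GRCh38) stood at 88.1, 90.0 and 84.5 FPKM in overexpression libraries, against 103, 102 and 100 FPKM in controls. Every overexpression library lay below every control, and the means were 87.5 ± 2.82 FPKM in overexpression libraries and 102 ± 1.67 FPKM in controls (SD, n = 3 each), a ratio of 0.859. The log2 change was -0.22 (SE 0.05, interval -0.33 to -0.10), with a limma p of 0.00174 and an adjusted p of 0.124, so it did not pass the test. A two-sided exact permutation test gave p = 0.1, and no lower p is possible with 3 libraries on each side. Of the 12 transcripts annotated for SRSF7, 6 are NMD and 2 retained-intron transcripts, and the stop codon shown above for SRSF7 lies in an exon shared by 2 of them.

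The other SR proteins stayed close to their control level. SRSF3, the SR protein most like SRSF7 in its RNA recognition motif, stood at 202, 226 and 199 FPKM in overexpression libraries and 218, 224 and 214 FPKM in controls. These values overlap, and the change was -0.07 (interval -0.20 to 0.07, limma adjusted p = 0.712). The ratio of SRSF7 to SRSF3 was 0.435, 0.397 and 0.425 in overexpression libraries, against 0.474, 0.456 and 0.468 in controls, and it was lower in each overexpression library. SRSF9, the most abundant SR gene, stood at 239, 268 and 260 FPKM in overexpression libraries and 258, 293 and 280 FPKM in controls (change -0.11, SE 0.07, limma adjusted p = 0.523). SRSF9 shares 46.2% of its annotated exon bases with GATC on the opposite strand, and whether the libraries kept strand is not given. SRSF11, an SR-related protein, stood at 73.6, 70.6 and 66.7 FPKM in overexpression libraries and 72.6, 74.9 and 78.1 FPKM in controls (change -0.10, SE 0.06, limma adjusted p = 0.551). SRSF4, the lowest of the class, averaged 22.0 ± 1.67 FPKM in overexpression libraries and 23.7 ± 2.47 FPKM in controls.

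SRSF1 and SRSF2, the best known members of the family, had estimates near 0. SRSF1 stood at 162, 164 and 145 FPKM in overexpression libraries and 154, 154 and 152 FPKM in controls, and its interval was -0.10 to 0.16. SRSF2 stood at 220, 201 and 199 FPKM in overexpression libraries, against 209, 201 and 204 FPKM in controls, with an interval of -0.11 to 0.13. Both overlap other genes: SRSF1 shares 56.6% of its exon bases with AC015813.2 on the same strand, and SRSF2 shares 36.7% with MFSD11 on the opposite strand. SRSF6 had the highest estimate of the class at 0.07 (interval -0.06 to 0.21), with 120, 115 and 117 FPKM in overexpression libraries and 102, 118 and 115 FPKM in controls. The SR-like activators TRA2A and TRA2B had changes of -0.09 (limma adjusted p = 0.702) and 0.04 (0.777), and the ratio of TRA2A to TRA2B was 0.405 ± 0.0401 in overexpression libraries and 0.444 ± 0.0344 in controls, with overlapping values. SRSF5 was among the steadiest genes of the list, at 152, 160 and 158 FPKM in overexpression libraries and 152, 161 and 156 FPKM in controls. In all, 7 of the 12 SR estimates were below 0, with a median of -0.04.

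**Figure D3:**
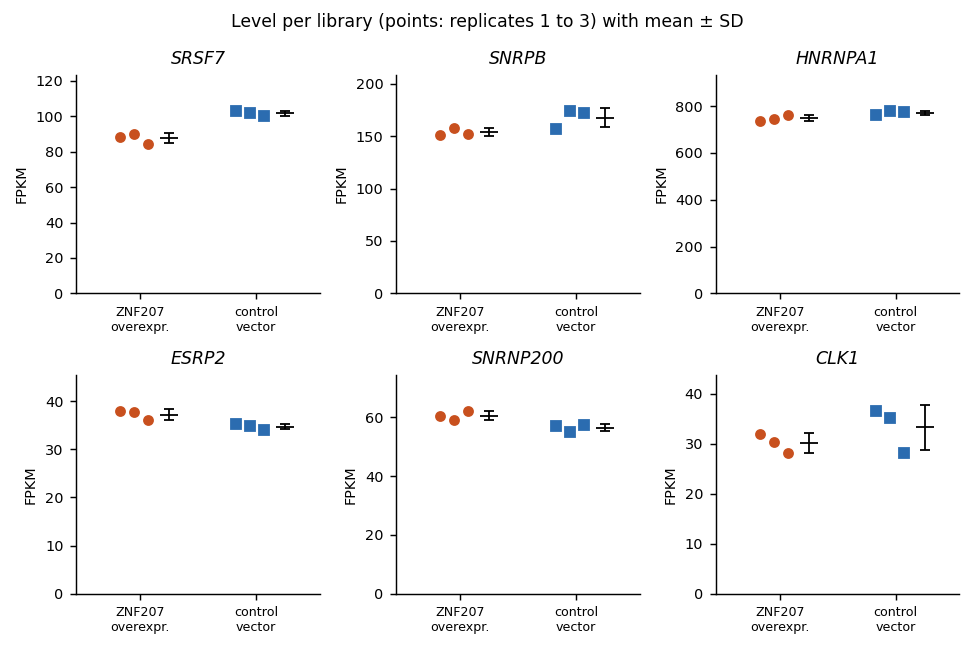
FPKM per library of 6 splicing genes (circles for ZNF207 overexpression, squares for control vector, with mean and SD beside them, n = 3). SRSF7 and HNRNPA1 are lower and ESRP2 and SNRNP200 higher in every overexpression library, while SNRPB and CLK1 overlap.

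The hnRNPs showed the smallest changes of the larger classes, from -0.06 to 0.07 with a median of -0.01 and 10 of 13 below 0. HNRNPA1, a repressor of exon use, was the most abundant gene of the list. It stood at 737, 745 and 761 FPKM in overexpression libraries, against 763, 779 and 774 FPKM in controls. Its groups did not overlap, but the distance was small: the means were 748 ± 12.1 FPKM in overexpression libraries and 772 ± 8.33 FPKM in controls (SD, n = 3 each), the log2 change was -0.05 (interval -0.15 to 0.06) and the limma adjusted p was 0.741. Over the alternatives in processing given below, the change of HNRNPA1 ran from -0.06 to 0.00. The gene has 74 processed or other pseudogene rows in the table, which summed to 9.60, 8.49 and 6.04 FPKM in overexpression libraries and 6.89, 6.68 and 8.41 FPKM in controls, 1.01% of its own level. HNRNPA2B1 had the highest estimate of the class, at 407, 422 and 405 FPKM in overexpression libraries and 416, 375 and 383 FPKM in controls (change 0.07, SE 0.05, limma adjusted p = 0.643), and control replicate 1 lay inside the overexpression range. HNRNPA3, its relative, stood at 174, 181 and 173 FPKM in overexpression libraries, against 176, 167 and 165 FPKM in controls (change 0.05, adjusted p = 0.719). HNRNPL, which binds CA-rich RNA, stood at 141, 135 and 125 FPKM in overexpression libraries, against 143, 138 and 136 FPKM in controls (change -0.06, adjusted p = 0.735).

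Several hnRNPs were measured tightly enough to bound a change well. HNRNPF, which binds G-rich sequence, stood at 185, 186 and 181 FPKM in overexpression libraries and 188, 185 and 189 FPKM in controls, and its interval was -0.13 to 0.08. HNRNPU, a scaffold protein of chromatin, had an interval of -0.15 to 0.07, and HNRNPK, which binds C-rich sequence, one of -0.12 to 0.10. HNRNPC, which coats long pre-mRNA, stood at 341, 375 and 354 FPKM in overexpression libraries and 369, 355 and 363 FPKM in controls. HNRNPR, the lowest of the class, averaged 86.7 ± 1.43 FPKM in overexpression libraries and 87.1 ± 3.76 FPKM in controls. HNRNPH1 varied more between replicates, with 494, 469 and 440 FPKM in overexpression libraries and 507, 460 and 448 FPKM in controls, and its ratio to HNRNPF was 2.54 ± 0.117 in overexpression libraries and 2.52 ± 0.17 in controls. HNRNPD, HNRNPH3 and HNRNPM had changes of -0.04, -0.01 and 0.03.

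Among the tissue-regulated factors, 5 of 8 estimates were above 0, with a median of 0.04 that lay between 0.00 (without control replicate 2) and 0.05 when 1 library was left out. It was 0.01 without overexpression replicate 3 and 0.02 without overexpression replicate 1. ESRP1 and ESRP2 set the epithelial pattern of splicing. ESRP2 (ENSG00000103067, chromosome 16, 68229111 to 68238102, minus strand) stood at 37.9, 37.8 and 36.0 FPKM in overexpression libraries, against 35.2, 34.8 and 34.1 FPKM in controls. It was higher in each overexpression library, with means of 37.2 ± 1.06 FPKM in overexpression libraries and 34.7 ± 0.569 FPKM in controls, a change of 0.10 (interval -0.03 to 0.23), a limma adjusted p of 0.519 and an exact permutation p of 0.1. ESRP1 stood at 82.7, 78.4 and 90.5 FPKM in overexpression libraries, against 78.0, 79.1 and 83.1 FPKM in controls (change 0.06, adjusted p = 0.735), and these values overlap. The ratio of ESRP1 to ESRP2 averaged 2.26 ± 0.229 in overexpression libraries and 2.31 ± 0.116 in controls.

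PTBP1, a repressor that binds pyrimidine tracts, was the most abundant of this class. It stood at 167, 162 and 157 FPKM in overexpression libraries and 151, 168 and 172 FPKM in controls, and the control values enclosed the others. Its paralog PTBP3 averaged 58.1 ± 4.04 FPKM in overexpression libraries and 57.0 ± 2.84 FPKM in controls. MBNL1 and MBNL2, factors sequestered by expanded repeats in myotonic dystrophy, had changes of 0.06 (adjusted p = 0.764) and 0.08 (0.797). MBNL2 was among the more variable members, with 32.7, 25.3 and 28.3 FPKM in overexpression libraries and 29.9, 26.6 and 24.6 FPKM in controls. CELF1, which often acts against MBNL proteins, stood at 58.0, 55.6 and 52.7 FPKM in overexpression libraries, against 61.5, 57.3 and 55.6 FPKM in controls (change -0.07, adjusted p = 0.708). RBFOX2, which binds UGCAUG elements, was the lowest, at 13.0 ± 0.926 FPKM in overexpression libraries and 13.6 ± 0.614 FPKM in controls.

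The proteins of 3′ splice site recognition and the U2 snRNP had a median change of -0.06, with 7 of 9 estimates below 0 and no gene whose groups were apart. SF3A2, a subunit of the SF3a complex, had the lowest estimate, at 27.7, 29.7 and 27 FPKM in overexpression libraries and 31.0, 35.1 and 28.5 FPKM in controls (change -0.16, SE 0.08, limma adjusted p = 0.489). Overexpression replicate 2 lay above control replicate 3. The SF3b subunits SF3B2 and SF3B3 had changes of -0.06 (adjusted p = 0.678) and -0.07 (0.728). SF3B1, the SF3b subunit that clamps the branch point and is often mutated in myelodysplastic syndromes, stood at 87.4, 96.3 and 96.3 FPKM in overexpression libraries and 100, 89.5 and 87.3 FPKM in controls, an interval of -0.13 to 0.17. SF1, the branch point binding protein, averaged 66.9 ± 3.88 FPKM in overexpression libraries and 69.6 ± 2.72 FPKM in controls. SF3A1 and SF3A3 were among the noisier genes, with a coefficient of variation of 11.3% and 8.68% over the 6 libraries.

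The U2AF heterodimer binds the pyrimidine tract and the terminal AG of the intron. Its large subunit gene U2AF2 was the most abundant of the class, at 142, 132 and 127 FPKM in overexpression libraries and 138, 143 and 136 FPKM in controls (change -0.06, interval -0.19 to 0.07). The small subunit gene U2AF1 was listed far lower, at 3.35, 2.46 and 2.73 FPKM in overexpression libraries and 3.29, 3.19 and 2.62 FPKM in controls, and its interval of -0.38 to 0.24 was the widest of the list. The level of U2AF1 is uncertain. The GRCh38 assembly holds a second copy on the same chromosome, annotated as U2AF1L5, and the coding sequences of transcripts U2AF1-202 and U2AF1L5-202 are identical over all 720 bases, so a read from one fits the other. U2AF1L5 was listed at 0 in 5 libraries and at 0.0149 FPKM in control replicate 1. How reads with several matching positions were assigned is not given. The first 60 coding bases of the copies show the identity (GENCODE v29, GRCh38, both genes on the minus strand of chromosome 21, U2AF1 at 43092956 to 43107587 and U2AF1L5 at 6484623 to 6499261).
U2AF1: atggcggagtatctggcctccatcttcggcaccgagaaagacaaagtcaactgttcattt
U2AF1L5: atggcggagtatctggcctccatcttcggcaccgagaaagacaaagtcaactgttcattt

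All 4 genes of the U1 snRNP and the Sm ring had estimates below 0, with a median of -0.11. SNRPB encodes SmB, a protein of the ring that surrounds U1, U2, U4 and U5 snRNA. Its gene (ENSG00000125835, chromosome 20, 2461634 to 2470853, minus strand) stood at 151, 158 and 152 FPKM in overexpression libraries, against 157, 174 and 172 FPKM in controls. Overexpression replicate 2 and control replicate 1 were nearly level, so the groups overlapped. The means were 154 ± 3.41 FPKM in overexpression libraries and 168 ± 9.27 FPKM in controls (SD, n = 3 each), with a change of -0.13 (SE 0.06), a limma p of 0.0464 and an adjusted p of 0.402. SNRPA, the U1 A protein, stood at 70.1, 63.5 and 63.4 FPKM in overexpression libraries and 69.3, 77.9 and 66.7 FPKM in controls (change -0.12, adjusted p = 0.562). SNRNP70, the U1 70K protein, stood at 89.5, 91.3 and 86.8 FPKM in overexpression libraries, against 87.6, 106 and 94.1 FPKM in controls (change -0.10, adjusted p = 0.624). Control replicate 2 was the highest library for these 3 genes. Without it the class median was -0.04, and the largest fall of the median on leaving out a library was to -0.15. SNRPD1, another Sm protein, averaged 26.2 ± 1.39 FPKM in overexpression libraries and 26.3 ± 1.56 FPKM in controls. Over the alternatives in processing given below, the estimate of SNRPD1 ran from -0.05 to 0.03. Those of SNRPB, SNRPA and SNRNP70 stayed below 0.

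In the U5, tri-snRNP and Prp19 class 4 of 5 estimates were below 0, with a median of -0.02. SNRNP200, the helicase Brr2 that unwinds U4 from U6, was the exception. It stood at 60.3, 59.0 and 62.0 FPKM in overexpression libraries, against 56.9, 55 and 57.4 FPKM in controls. It was higher in each overexpression library, with means of 60.4 ± 1.52 FPKM in overexpression libraries and 56.4 ± 1.27 FPKM in controls, a change of 0.10 (interval -0.02 to 0.21), a limma adjusted p of 0.501 and an exact permutation p of 0.1. PRPF8, the scaffold of the catalytic centre that holds Brr2, stood at 42.0, 38.9 and 39.6 FPKM in overexpression libraries, against 42.4, 37.8 and 45.8 FPKM in controls (change -0.06, adjusted p = 0.804). EFTUD2, a GTPase of the U5 snRNP, and PRPF19, the ubiquitin ligase of the NTC, both had a change of -0.02. PRPF31, which holds the U4/U6 part of the tri-snRNP, averaged 29.1 ± 0.296 FPKM in overexpression libraries and 29.7 ± 1.14 FPKM in controls and had the lowest level of the class.

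Of the 4 SR protein kinases, 3 had estimates below 0, and their median of -0.07 lay between -0.12 (without overexpression replicate 1) and -0.02 (without overexpression replicate 2 or control replicate 1) when 1 library was left out. CLK1, which phosphorylates SR proteins in the nucleus, stood at 32.0, 30.3 and 28.1 FPKM in overexpression libraries and 36.5, 35.1 and 28.2 FPKM in controls (change -0.13, SE 0.10, limma adjusted p = 0.635). Control replicate 3 was level with the lowest overexpression library. CLK4, the lowest of the class, stood at 13.4, 11.5 and 11.9 FPKM in overexpression libraries and 14.8, 12.5 and 12.1 FPKM in controls (change -0.09, adjusted p = 0.759). CLK2 stood at 19.6, 17.1 and 18.3 FPKM in overexpression libraries, against 19.2, 19.5 and 18.1 FPKM in controls (change -0.04, adjusted p = 0.862). SRPK1, the mainly cytoplasmic kinase that licenses SR proteins for nuclear import, averaged 39.0 ± 2.84 FPKM in overexpression libraries and 38.4 ± 1.19 FPKM in controls. The ratio of CLK1 to SRPK1 was 0.777 ± 0.107 in overexpression libraries and 0.866 ± 0.0994 in controls, with overlapping values.

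**Figure D4:**
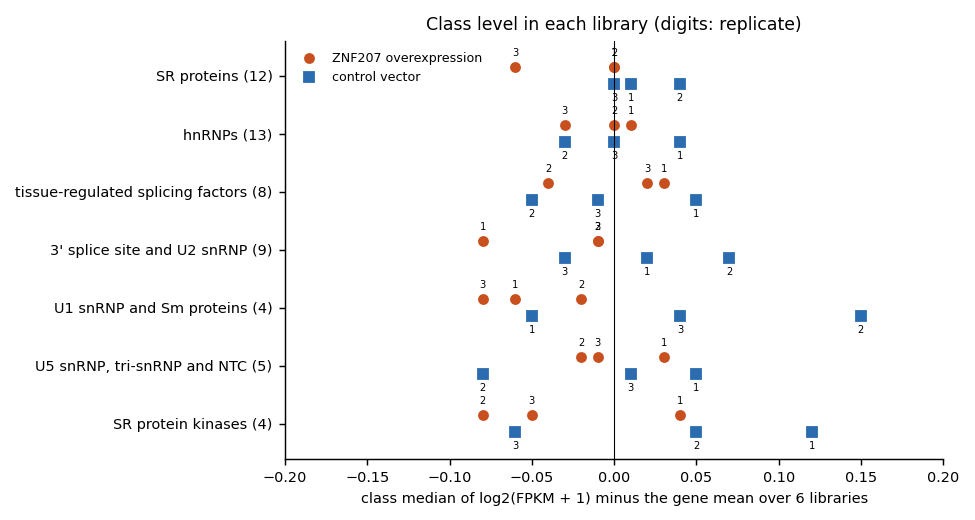
Median over the genes of each class of log2(FPKM + 1) minus the gene's mean over 6 libraries, for each ZNF207 overexpression library (circles) and control library (squares), with digits for the replicate number and the number of genes in brackets. The groups overlap in every class but the SR proteins, where they meet near 0.00. The highest point is the U1 and Sm class in control replicate 2 (0.15).

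The libraries of the groups were interleaved in every class but the SR proteins, where the groups met at 0.00 in the printed digits. For the SR proteins the class median stood at 0.00, 0.00 and -0.06 in overexpression libraries and 0.01, 0.04 and 0.00 in controls, each relative to the genes' means. For the hnRNPs it stood at 0.01, 0.00 and -0.03 in overexpression libraries and 0.04, -0.03 and 0.00 in controls. The class of kinases ran from -0.08 to 0.04 in overexpression libraries and from -0.06 to 0.12 in controls. No class contained a called gene.

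Further genes of the pathway were also without a called gene. Of 162 other spliceosome and splicing regulator genes on a list, 161 were matched by symbol, 148 were tested, and 0 passed the test in either direction (limma, adjusted p under 0.05). At an unadjusted p under 0.05 there were 10 lower genes (6.76%, against 7.03% of all tested genes) and 2 higher genes (1.35%, against 5.08%). The groups did not overlap for 18 lower genes (12.2%, against 10.4%) and 4 higher genes (2.70%, against 7.61%). The median change was -0.03 (all tested genes -0.01). Estimates below 0 numbered 92 and those above 0 numbered 56, against 6911 and 6274 of all 13185 tested genes. Library medians of this list did not overlap between the groups, but lay close together: they were between -0.02 and -0.01 in overexpression libraries and between 0.01 and 0.02 in controls.

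**Figure D5:**
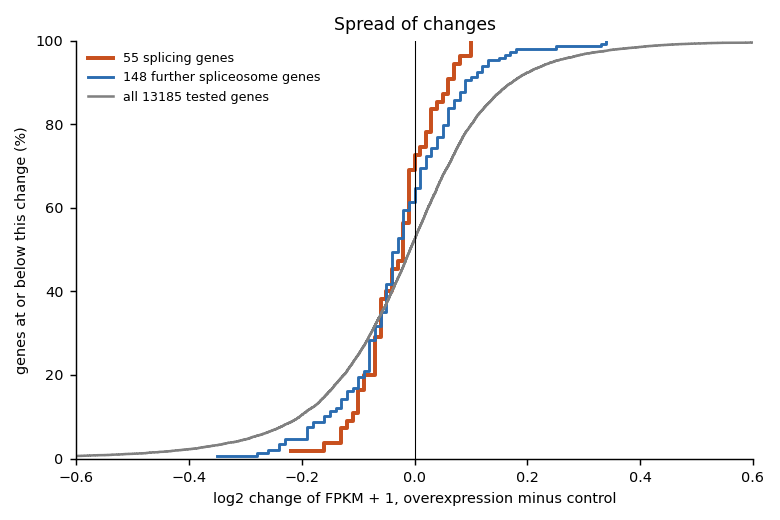
Share of genes at or below each log2 change (overexpression minus control, FPKM + 1) for the 55 splicing genes, the 148 further spliceosome genes tested and all 13185 tested genes. The curve of the 55 is the steepest, with a median size of 0.0559 against 0.0878 over all tested genes.

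The lowest estimate among the further genes with the smallest p was that of DDX41, a DEAD-box helicase of late spliceosomes, at 57.5, 63.1 and 54.2 FPKM in overexpression libraries, against 72.7, 82.4 and 68.7 FPKM in controls (change -0.35, SE 0.08, limma adjusted p = 0.122). DHX40, a DEAH-box helicase, stood at 50.0, 50.4 and 51.6 FPKM in overexpression libraries, against 57.3, 60.4 and 60.6 FPKM in controls (change -0.23, SE 0.05, adjusted p = 0.127). TXNL4A, the small U5 protein Dim1, stood at 38.2, 38.7 and 38.7 FPKM in overexpression libraries, against 47.1, 47.8 and 42.7 FPKM in controls (change -0.24, SE 0.06, adjusted p = 0.15). For these 3 genes every overexpression library lay below every control, and none passed the test in the fit without a replicate block. In the other direction, U2AF1L4, a paralog of U2AF1 on chromosome 19 (35742464 to 35745445, minus strand), stood at 10.7, 10.9 and 11.3 FPKM in overexpression libraries, against 8.92, 8.17 and 8.20 FPKM in controls (change 0.34, SE 0.08, limma adjusted p = 0.129). It was higher in each overexpression library, and 11.5% of its exon bases overlap PSENEN on the opposite strand, a gene at a mean of 56.2 FPKM. DDX20, a helicase of the SMN complex that assembles snRNPs, stood at 26.0, 25.9 and 23.6 FPKM in overexpression libraries, against 22.8, 21.8 and 22.4 FPKM in controls (change 0.17, SE 0.07, adjusted p = 0.35). PPIL1, a peptidyl-prolyl isomerase of the spliceosome, averaged 38.7 ± 3.01 FPKM in overexpression libraries and 34.8 ± 1.96 FPKM in controls with overlapping values (change 0.15, adjusted p = 0.465).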

How the data were processed

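The authors deposited FPKM values, 1 column per library and no pooling. The build hg38 and the tools DESeq2 1.4.5, RSEM 1.3.1 and Bowtie2 are named per the submitters' processing notes. Their roles, the annotation and the strand setting are not stated there. Columns were matched to libraries by name alone (207 for overexpression, NC for control vector, last digit for replicate). The members and lists were chosen with earlier results of these data known. Repeated names kept the row with the highest mean.

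FPKM is not a count, so log2(FPKM + 1) was fitted with limma 3.58.1 in R 4.3.3 (group as the only term, mean-variance trend, two-sided) for the 13185 genes at 1 FPKM or more in at least 3 of 6 libraries, with Benjamini-Hochberg adjustment over all of them. Changes are on that scale, which understates low genes. Permutation tests (scipy 1.17.1) were exact. The procedure was tested on simulated data. In each class the 3 genes with the smallest p and the highest and lowest in level were named, and of the further genes the 3 with the smallest p in each direction. Other members, and further genes beyond this rule, were named after their values were seen. Positions, transcript kinds and exon overlaps came from GENCODE v29, whose gene lay inside the locus listed in the table for 45 members, and 13 members shared exon bases with another tested gene. No 2 libraries of a group shared more than 8 identical tested values.
One marker of the line is not reported here.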

Additional observations from a re-analysis of the deposited data

How the results depend on the processing

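Under 17 alternatives none of the 55 genes was called, with the lowest adjusted p at 0.0609 (limma). Over these alternatives the change of SRSF7 ran from -0.24 to -0.17 (adjusted p 0.0609 to 0.371) and that of SNRPB from -0.17 to -0.08 (0.185 to 0.75). Of 934 member values, rounded as printed, 52 changed sign, in 19 genes, none of them called. A value that rounded to 0.00 was not counted as a change of sign. This left out SRSF5 (-0.02 to 0.05) and SF3A3 (-0.07 to 0.08), whose main estimates were 0.00. Of all tested genes, 28 were called, and 4 without a filter, 64 with the filter at 5 FPKM, 18 with median-of-ratios scaling, 5 without a variance trend and 7 to 33 with a library left out. Quantile scaling called 8 higher and 12 lower genes, and scaling without mitochondrial genes and ZNF207, added after seeing the data, 12 higher and 17 lower, against 7 and 21. Members at an unadjusted p under 0.05 numbered 4 without a filter, against 875 higher and 1215 lower genes among all 26685 tested there. Without a variance trend they numbered 1, against 603 higher and 884 lower among all 13185 tested genes. With a library left out they numbered 1 to 5 (1.82% to 9.09%, against 8.20% to 13.2% of all tested genes). Members whose groups did not overlap numbered 8 to 15 with a library left out (14.5% to 27.3%, against 24.5% to 31.7% of all tested genes). The scaling added after seeing the data gave medians of 0.02 for the 55, 0.00 for SR proteins, 0.03 for hnRNPs, 0.09 for tissue-regulated factors and 0.01 for the further genes. The further genes' median was -0.01 with TPM and -0.02 with median-of-ratios scaling. On leaving out a library it ran from -0.04 to -0.02, and the hnRNP median from -0.04 to 0.01. The count of further genes at an unadjusted p under 0.05 then ran from 8 to 16 of 148. The share of all tested genes in those fits was 8.20% to 13.2%. The cause of these shifts was not tested. With the replicate number as a block 145 genes were called, 0 of the 55 and 1 further gene, DDX41 (adjusted p = 0.0176), with 5 members (9.09%) and 22 further genes (14.9%) at an unadjusted p under 0.05, against 17.2% of all tested genes. Deviations of same-numbered libraries correlated at 0.136, 0.00881 and 0.175 across all tested genes and at 0.442, 0.181 and 0.324 across the 55. Since 1 of the values over all tested genes was under 0.1, and not every library correlated best with its own number on either set, the numbers were not taken as pairs. Unknown read depth limits the low values, such as U2AF1.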

Other observations

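The proteins that mark spliced junctions gave a pattern among the further genes that was singled out after its values were seen. The exon junction complex is laid down on mRNA upstream of each spliced junction. For 4 of its 6 listed genes every overexpression library lay below every control, which was so for 10.4% of all tested genes. Both figures are for the values as deposited. With libraries scaled without mitochondrially encoded genes and ZNF207, 884 of all 13185 tested genes were lower in this way, against 1365. Values of the 6 genes under other scalings are not given here. MAGOH, a core subunit, stood at 35.0, 32.3 and 31.7 FPKM in overexpression libraries, against 40.3, 44.1 and 36.5 FPKM in controls (change -0.28, SE 0.08, limma adjusted p = 0.196). The core helicase EIF4A3 stood at 57.2, 57.5 and 53.7 FPKM in overexpression libraries, against 60.2, 59.7 and 60.9 FPKM in controls (change -0.10, adjusted p = 0.493), and the core subunit RBM8A at 261, 251 and 245 FPKM in overexpression libraries, against 265, 267 and 262 FPKM in controls (change -0.07, adjusted p = 0.61). UPF3B, which links the complex to decay of transcripts with early stop codons, had a change of -0.08 (adjusted p = 0.691). It stood at 13.6, 14.0 and 14.0 FPKM in overexpression libraries, against 14.0, 15.5 and 14.8 FPKM in controls. Its groups were apart only in digits beyond those printed. MAGOHB, a near-identical paralog of MAGOH, had a change of 0.09 (adjusted p = 0.678) with overlapping values, and reads shared by the paralogs could be assigned to either. CASC3, the remaining core subunit, had a change of -0.06 (adjusted p = 0.799), also with overlapping values. Of the SR-related proteins known to join the complex, RNPS1 and PNN were lower in every overexpression library, with estimates of -0.15 (adjusted p = 0.27) and -0.12 (adjusted p = 0.359), while ACIN1 (-0.05, adjusted p = 0.805) and SRRM1 (-0.10, adjusted p = 0.703) had overlapping values. The export helicase DDX39B was lower in every overexpression library with -0.19 (adjusted p = 0.196). None of these genes passed the test.

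Of the pseudogenes of the 55 genes, 127 rows in 20 families, 5 reached a mean of 1 FPKM.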
